A study of Mus musculus with 9 samples.

Results

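Of 51810 genes in the table, 8 that control transcription of the antioxidant response were followed across all 9 RNA sequencing libraries of cultured mouse valvular interstitial cells, the fibroblast-like cells of heart valve leaflets. They were listed by symbol as the transcription factors NRF2 (Nfe2l2) and NRF1 (Nfe2l1), the repressors Keap1 and Bach1, the small MAF partners Maff, Mafg and Mafk, and Osgin1, a target of NRF2. All 8 symbols were in the table. The cells came from both the mitral and the aortic valve of C57BL/6J mice, and the labels name no engineered allele. The oxLDL group received oxidised low-density lipoprotein at 50 ug/mL, the LDL group native low-density lipoprotein at 50 ug/mL, and the Control group, which is called untreated, buffer in place of lipoprotein, each for 24 h. Every group had 3 libraries and the same medium with 10% serum, insulin at 5 ug/mL, EGF at 2 ng/mL and basic FGF at 0.5 ng/mL. The labels do not say whether the 3 libraries of a group came from separate cultures or animals, so all p-values measure only the variation among these libraries, which may be technical.

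NRF2 is a basic leucine zipper factor of the cap'n'collar (CNC) family. In unstressed cells KEAP1, a substrate adaptor of the CUL3 ubiquitin ligase, captures NRF2 and sends it to the proteasome, and electrophiles such as lipid oxidation products modify cysteines of KEAP1 and let NRF2 accumulate. NRF2 then pairs with a small MAF protein, binds antioxidant response elements and activates genes of glutathione, thioredoxin, NADPH and haem metabolism. BACH1 pairs with the same small MAFs, occupies many of the same elements as a repressor, and leaves them when haem binds it. Small MAFs lack a transactivation domain, so a pair of them alone represses. Much of this control acts on protein stability and location, which transcript levels do not record.

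The promoters of the 8 genes were searched because several genes of this circuit are known targets of NRF2 themselves. RefSeq (GRCm38.p6) listed a start for each of the 8 genes, and the window ran from 250 bases before to 50 bases after it. The core of the antioxidant response element, TGACNNNGC, was searched on both strands and occurred in a promoter of 4 of the 8 genes. It occurred in 12.4% of all 32851 promoters of that table and in 14% of its 27025 genes. Nfe2l1 had 5 listed starts and Maff had 3, so more sequence was searched for them. The 4 matches follow on the strand of the gene, 5′ to 3′, with the 9 matching bases in capitals. The Mafg and Mafk matches read on the opposite strand.
Nfe2l2, chr2:75704884-75704913, minus strand: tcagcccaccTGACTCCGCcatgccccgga
Maff, chr15:79346499-79346528, plus strand: gggcgtctcaTGACTCTGCcactggaaaga
Mafg, chr11:120633750-120633779, minus strand: ctctgcaggaGCACGGTCAacccggcgagc
Mafk, chr5:139791513-139791542, plus strand: gatcccggaaGCGGTGTCAgtactggggag

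The match began 240 bases before the listed start in Nfe2l2, 112 in Maff, 222 in Mafg and 13 in Mafk. The related AP-1 core TGANTCA, which shares its first bases with the element, was in none of these 4 windows of 30 bases. The rest of the promoters was not searched for it, and the Osgin1 promoter contains TGACTCA. The windows of Nfe2l1, Keap1, Bach1 and Osgin1 held no match to TGACNNNGC. The Osgin1 window, from 119436897 to 119437196 of chromosome 8, lay inside the gene as GENCODE M21 places it. The GENCODE start of Osgin1 at 119434124 was therefore not searched. A match of these letters is a description of the sequence and does not show binding.

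In the GENCODE M21 annotation of GRCm38 all 8 were protein-coding genes. Nfe2l2 lies on chromosome 2 from 75675513 to 75704641 on the minus strand, and Nfe2l1 on chromosome 11 from 96817414 to 96829968, minus strand. Keap1 occupies 21229730 to 21239361 of chromosome 9, minus strand, and Bach1 87698945 to 87733346 of chromosome 16, plus strand. Maff spans 79346621 to 79359076 on chromosome 15, plus strand, Mafg 120625117 to 120633600 on chromosome 11, minus strand, and Mafk 139791513 to 139802653 on chromosome 5, plus strand. Osgin1 is found on chromosome 8 from 119434124 to 119446256, plus strand. Exons of 3 genes overlapped a neighbour. Keap1 shared 510 of its 4693 exonic bases with Gm16754 on the other strand, Mafk 169 of 3901 with Tmem184a on the other strand, and Mafg 124 of 5613 with Sirt7 on its own strand. The library kit did not mark strand, so reads in the shared bases cannot be assigned to a gene by strand. Gm16754 and Tmem184a averaged between 0.763 and 1.14 TPM in every group, and Sirt7 between 18.4 and 19.2 TPM.

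Levels are given in TPM, the length-corrected share of a gene among all transcripts of a library. TPM keeps no read depth, so the reads behind a value are unknown, and fewer cells of a type cannot be told apart from less RNA per cell. Each library listed 20985 to 21433 genes above 0. The 10 valve fibroblast markers (among them Col1a1, Pdgfra and Postn) were all detected and summed to 11900 to 14200 TPM with oxLDL, 11800 to 13200 TPM with LDL and 12500 to 13600 TPM in Control. Markers of other cell types were detected too. The 10 macrophage markers summed to 97.1 to 715, 222 to 711 and 218 to 464 TPM with oxLDL, with LDL and in Control, and the 7 endothelial markers to 127 to 304, 128 to 322 and 122 to 286 TPM. The 7 melanocyte markers stayed at or below 23.3 TPM in sum and the 6 cardiomyocyte markers at or below 64.1 TPM. Most of the cardiomyocyte sum was Tnnt2, at 9.59 to 63.04 TPM. Actc1 reached 1.95 TPM at most, and Myh6, Myh7, Nppa and Tnni3 stayed at or below 0.8 TPM. No marker on these lists was at 0 in all 9 libraries.

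All 8 genes passed the filter of a mean of at least 1 TPM, and their order was nearly the same under each treatment. By their mean over the 9 libraries, Nfe2l2 and Nfe2l1 lay above 93.2% and 91.6% of the 13495 genes tested, and Bach1, the lowest of the 8, above 44.4%. In Control the means ± SD (n = 3) were 162 ± 15.8 TPM for Nfe2l2, 138 ± 21.9 for Nfe2l1, 62.1 ± 1.46 for Maff and 42.0 ± 3.56 for Mafk. They were 37.7 ± 1.80 TPM for Keap1, 30.3 ± 9.07 for Osgin1, 24.2 ± 1.82 for Mafg and 15.2 ± 0.826 for Bach1. Nfe2l2 exceeded Nfe2l1 in 7 of 9 libraries, and their ranges overlapped with oxLDL and in Control. Maff lay below both and above Mafk in all 9 libraries. Mafk, Keap1 and Osgin1 overlapped as neighbours with oxLDL and with LDL, whereas in Control Osgin1 lay below Keap1 without overlap. Osgin1 overlapped Mafg with LDL and in Control. Bach1 was below Mafg in every library.

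**Figure D1:**
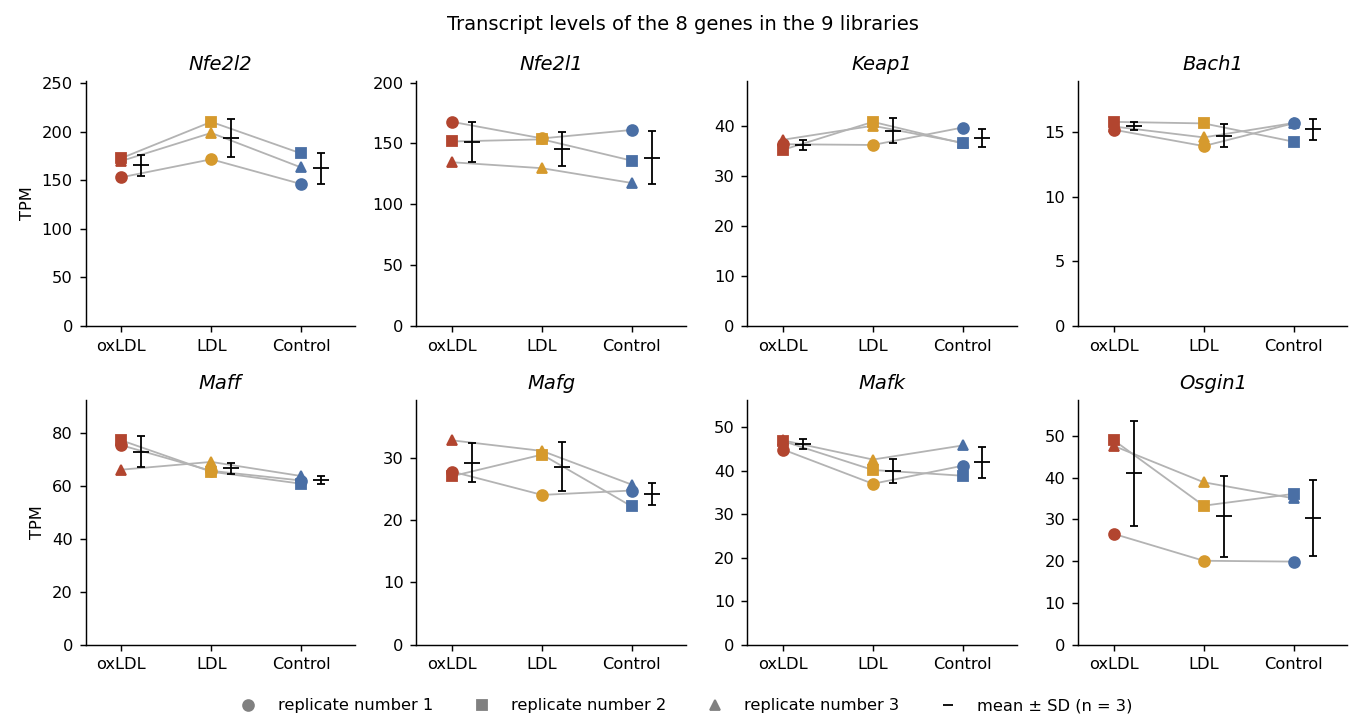
TPM of each gene (vertical axes start at 0) in the oxLDL, LDL and Control libraries. Points are single libraries, grey lines join libraries with the same replicate number, and black bars are the mean ± SD of 3; Osgin1 in libraries with number 1 lay at 19.9 to 26.5 TPM, below the other 6, while Keap1 and Bach1 stayed within 1.16-fold and 1.13-fold over all 9.

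None of the 8 genes passed limma at an adjusted p under 0.05 in any comparison (0 of 8 each). The same test called 0.0148% of the 13495 genes for oxLDL against Control, 0.333% for LDL against Control and 0.104% between oxLDL and LDL. With the replicate number of the sample titles as a block the count was again 0 of 8 in each, where 0.126%, 0.852% and 0.259% of all genes were called. At an unadjusted p under 0.05 limma gave 1 gene of the 8 in each comparison (Maff, Nfe2l2 and Mafk in that order), and 4, 2 and 3 with the block. Over all genes this level was reached by 3.86%, 6.65% and 3.91%, and by 9.08%, 13.1% and 8.51% with the block. The 3 libraries of each group did not overlap for 2 of the 8 genes with oxLDL against Control, 1 with LDL against Control and 1 with oxLDL against LDL. Over all genes tested this held for 7.33%, 10.7% and 8.31%. Within the replicate numbers, 5, 2 and 4 of the 8 genes differed in the same direction 3 of 3 times, against 27.1%, 35.4% and 31.5% of all genes. The median log2 difference of the 8 genes was 0.14, 0.07 and 0.06 on the scale of log2(TPM + 1), against 0.00 over all genes in each comparison.

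**Figure D2:**
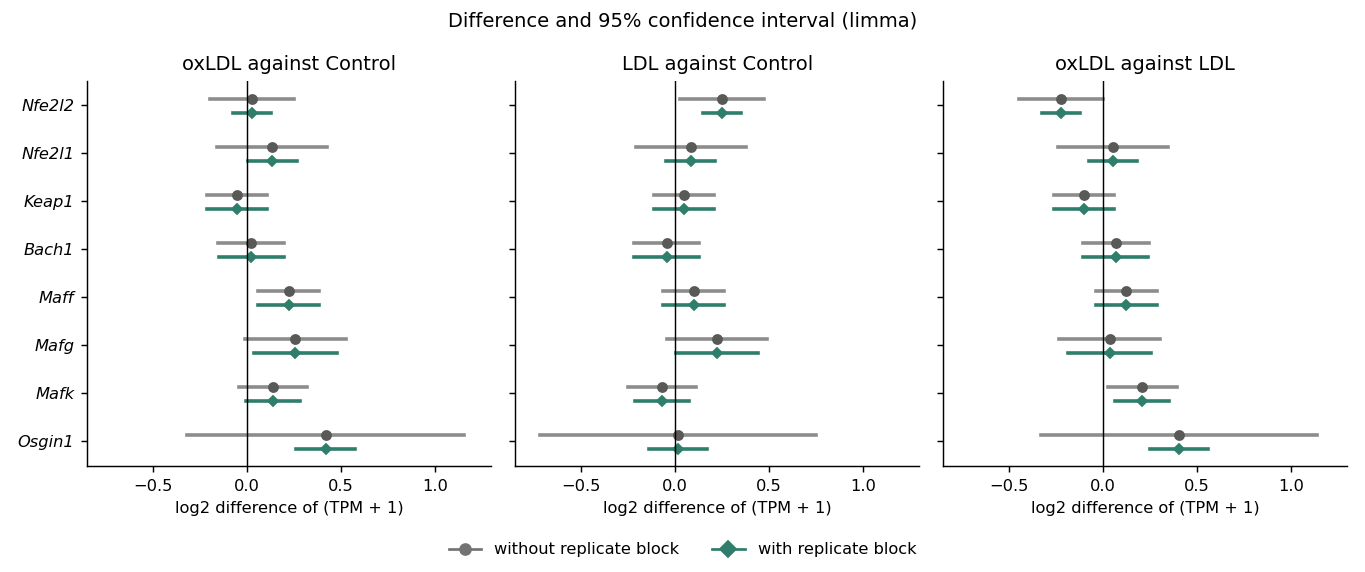
Difference of each gene on the log2(TPM + 1) scale (horizontal axis) with its 95% confidence interval from limma, not adjusted for the number of genes, in 3 comparisons. Grey circles are the fit without and green diamonds the fit with the replicate number as a block; the Osgin1 interval for oxLDL against Control ran from -0.32 to 1.15 without the block and from 0.26 to 0.57 with it.

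Among the activators, Nfe2l2 had its highest mean with LDL. Nfe2l2 stood at 172, 210.2 and 199 TPM in the LDL libraries, against 146, 178 and 163 TPM in the Control libraries. The groups overlapped, because the lowest LDL library lay under the highest Control library, but LDL was higher within each replicate number, by 1.17-, 1.18- and 1.22-fold. On the log2 scale LDL differed from Control by 0.25 (95% CI 0.03 to 0.48, limma adjusted p = 0.631). With the replicate block the interval narrowed to 0.15 to 0.35 and the adjusted p was 0.054, still above the threshold. With oxLDL, Nfe2l2 was at 153, 173 and 170.0 TPM, within the Control range in all 3 libraries (log2 difference 0.03, 95% CI -0.20 to 0.25, adjusted p = 1). Set against LDL, oxLDL libraries averaged 165 ± 10.6 TPM and LDL libraries 194 ± 19.8 TPM (SD, n = 3 each), lower in 3 of 3 replicate numbers (log2 difference -0.22, 95% CI -0.45 to 0.00, adjusted p = 1, and 0.145 with the block).

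Nfe2l1 encodes NRF1, a relative of NRF2 that is anchored in the endoplasmic reticulum and is known for driving proteasome genes when proteasome capacity falls short. It was at 168, 152 and 135 TPM with oxLDL, 154, 153 and 129.7 TPM with LDL, and 161, 136 and 118 TPM in Control. The library numbered 1 was the highest of its group and the library numbered 3 the lowest under every treatment, and all groups overlapped. The replicate number accounted for 79.2% of the variance of its log2 values and the treatment for 12.9%, where the medians over all genes tested were 44.2% and 16.9%. Its log2 differences from Control were 0.14 with oxLDL (95% CI -0.16 to 0.43) and 0.08 with LDL (95% CI -0.21 to 0.38). Between oxLDL and LDL it was 0.05 (95% CI -0.24 to 0.34), and each adjusted p was 1 without the block. With the block the limma intervals were 0.007 to 0.27, -0.05 to 0.21 and -0.08 to 0.18 in that order (adjusted p = 0.524, 0.594 and 0.888). Within the replicate numbers oxLDL exceeded Control by 1.04-, 1.12- and 1.14-fold.

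Of the repressors, Keap1 varied little. Its levels were 36.4, 35.3 and 37.3 TPM with oxLDL, 36.3, 40.9 and 40.1 TPM with LDL, and 39.8, 36.6 and 36.7 TPM in Control, and the groups overlapped. Its log2 differences were -0.05 for oxLDL against Control (95% CI -0.21 to 0.11), 0.05 for LDL against Control (95% CI -0.11 to 0.21) and -0.10 for oxLDL against LDL (95% CI -0.26 to 0.06). All 3 adjusted p-values were 1.

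Bach1 was the flattest of the 8 genes, with a highest library 1.13-fold above its lowest. It was listed at 15.2, 15.8 and 15.4 TPM with oxLDL, 13.9, 15.65 and 14.6 TPM with LDL, and 15.7, 14.2 and 15.7 TPM in Control. Its log2 difference was 0.02 for oxLDL against Control (95% CI -0.15 to 0.20), -0.04 for LDL against Control (95% CI -0.22 to 0.13) and 0.07 for oxLDL against LDL (95% CI -0.11 to 0.24), with an adjusted p of 1 and overlap in all 3 comparisons.

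The balance of activator and repressor was described as the ratio of Nfe2l2 to Bach1 in each library, since their proteins compete for small MAFs and for sites. Nfe2l2 exceeded Bach1 by 10.1-, 11.0- and 11.0-fold in the oxLDL libraries, 12.4-, 13.4- and 13.6-fold in the LDL libraries, and 9.34-, 12.5- and 10.4-fold in the Control libraries. The oxLDL and LDL libraries did not overlap. As a log2 ratio of Bach1 to Nfe2l2, with 1 TPM added to each gene, oxLDL averaged -3.34 ± 0.07 and LDL -3.63 ± 0.08 (SD, n = 3 each), a difference of 0.29 that was 0.28, 0.29 and 0.30 within the 3 replicate numbers. The exact two-sided permutation p was 0.1, the smallest that 3 against 3 samples can give, and 0.2 after Benjamini-Hochberg adjustment over 6 such comparisons. The difference was -0.30 for LDL against Control (exact permutation p = 0.2, adjusted 0.3) and -0.0045 for oxLDL against Control (exact permutation p = 1). Nfe2l2 also exceeded Keap1 in every library, by between 3.68-fold in Control 1 and 5.14-fold in LDL 2.

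The small MAFs, the obligate partners of NRF2 and BACH1 at DNA, were highest in sum with oxLDL. Maff, Mafg and Mafk together reached 148, 151 and 146 TPM in the oxLDL libraries, against 127, 136 and 143 TPM with LDL and 128, 122 and 135 TPM in Control. All oxLDL libraries lay above all libraries of the other treatments. The sum differed on the log2 scale by 0.21 for oxLDL against Control and 0.14 for oxLDL against LDL, each with an exact two-sided permutation p of 0.1, the smallest possible, and 0.2 after adjustment. For LDL against Control it was 0.07 (exact permutation p = 0.4). The shares of the 3 genes in the sum were close in the groups. Maff contributed 49.1, 49.4 and 48.5% on average with oxLDL, with LDL and in Control, Mafk 31.2, 29.5 and 32.7%, and Mafg 19.7, 21.1 and 18.9%.

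**Figure D3:**
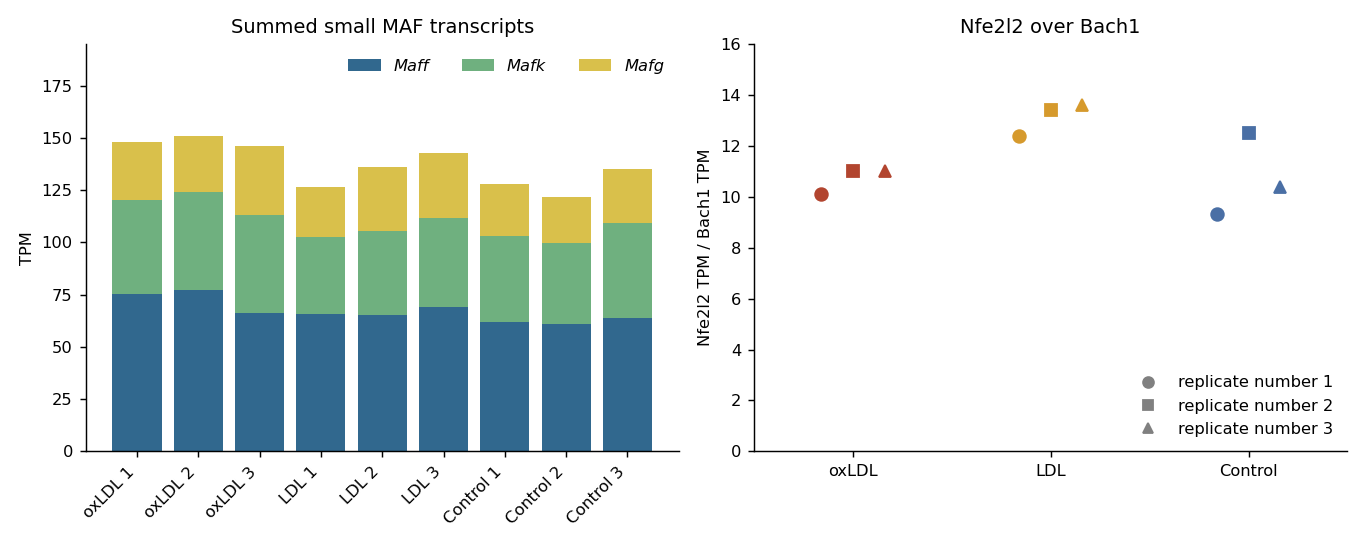
Left, TPM of Maff, Mafk and Mafg stacked for each of the 9 libraries; the oxLDL sums of 146 to 151 TPM stand above the highest other library, at 143 TPM. Right, Nfe2l2 TPM divided by Bach1 TPM in each library (vertical axis), with symbols for the replicate number; oxLDL libraries sit at 10.1 to 11.0 and LDL libraries at 12.4 to 13.6.

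Maff, which is known to be inducible by inflammatory and stress signals, was the most abundant of the 3. It was at 75.3, 77.15 and 66.1 TPM with oxLDL, 65.6, 65.3 and 69.01 TPM with LDL, and 62.0, 60.8 and 63.7 TPM in Control. Both the oxLDL and the LDL libraries lay above every Control library. The log2 difference was 0.22 for oxLDL against Control (95% CI 0.06 to 0.38, unadjusted p = 0.0122 and adjusted p = 1 in limma). It was 0.10 for LDL against Control (95% CI -0.06 to 0.26, adjusted p = 0.972) and 0.12 for oxLDL against LDL (adjusted p = 1).

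Mafg, the small MAF whose loss together with Mafk is known to be lethal in mice, was at 27.8, 27.1 and 32.85 TPM with oxLDL, 24.1, 30.6 and 31.15 TPM with LDL, and 24.8, 22.2 and 25.7 TPM in Control. The oxLDL libraries were all above Control, while the LDL 1 library lay within the Control range. Its log2 difference was 0.26 for oxLDL against Control (95% CI -0.01 to 0.53, adjusted p = 1) and 0.22 for LDL against Control (95% CI -0.04 to 0.49, adjusted p = 0.865). With the block the limma intervals were 0.04 to 0.48 and 0.004 to 0.44 (adjusted p = 0.485 and 0.373). Within the replicate numbers oxLDL was 1.12-, 1.22- and 1.28-fold of Control, and LDL 0.971-, 1.38- and 1.21-fold. Between oxLDL and LDL it was 0.04, with overlapping libraries.

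Mafk, a small MAF present in most tissues, was at 44.9, 46.8 and 47.0 TPM with oxLDL, 37.0, 40.2 and 42.6 TPM with LDL, and 41.2, 38.9 and 45.85 TPM in Control. Every oxLDL library was above every LDL library, and Control overlapped both. The log2 difference was 0.21 for oxLDL against LDL (95% CI 0.03 to 0.39, unadjusted p = 0.0296 and adjusted p = 1 in limma, and 0.34 with the block). It was 0.14 for oxLDL against Control (adjusted p = 1) and -0.07 for LDL against Control (adjusted p = 1).

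Osgin1 encodes oxidative stress induced growth inhibitor 1, an NRF2 target known in human aortic endothelial cells to be induced by oxidised phospholipids. It was at 26.5, 48.9 and 47.6 TPM with oxLDL, 20.1, 33.25 and 38.9 TPM with LDL, and 19.9, 36.1 and 35.0 TPM in Control. The groups overlapped, and the library numbered 1 was the lowest of its group under each treatment. The replicate number accounted for 78.8% of the variance of the log2 values. Within the numbers, oxLDL exceeded Control by 1.33-, 1.36- and 1.36-fold and exceeded LDL by 1.32-, 1.47- and 1.22-fold, while LDL was 1.01-, 0.922- and 1.11-fold of Control. Its log2 difference was 0.42 for oxLDL against Control, with a standard error of 0.32 without the replicate block and 0.07 with it (adjusted p = 1 without and 0.101 with the block). It was 0.40 for oxLDL against LDL (adjusted p = 1 without and 0.0871 with the block) and 0.02 for LDL against Control (adjusted p = 1 without and 0.957 with the block). In fits without the block these values moved when 1 library was omitted, which also leaves its replicate number unpaired. For oxLDL against Control they ran from 0.15 without Control 1 to 0.70 without oxLDL 1. Between oxLDL and LDL they ran from 0.13 without LDL 1 to 0.68 without oxLDL 1. Within the 3 replicate numbers the log2 differences were 0.40, 0.43 and 0.43 for oxLDL against Control, and 0.38, 0.54 and 0.28 between oxLDL and LDL. The summed endothelial markers moved with the replicate number too, at 304, 322 and 286 TPM in oxLDL 1, LDL 1 and Control 1, against 122 to 191 TPM in the other 6 libraries. In each group the library numbered 1 had the lowest Osgin1 and Nfe2l2 and the highest Nfe2l1, and the part of endothelial cells in this was not tested.

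The machinery around NRF2 was measured with 23 further genes, chosen with earlier results of these data known. It included the ligase that KEAP1 serves (Cul3 and Rbx1), the BTRC and FBXW11 route that acts after GSK3 phosphorylation, coactivators and KEAP1-binding proteins. In limma 0 of 23 passed in any comparison, with 0, 2 and 0 at an unadjusted p under 0.05 for oxLDL against Control, LDL against Control and oxLDL against LDL. With the block 0 of 23 passed as well (2, 3 and 1 at an unadjusted p under 0.05). The shares of all genes at that level were 3.86%, 6.65% and 3.91%, and 9.08%, 13.1% and 8.51% with the block. Their median log2 differences were 0.00, -0.03 and 0.01. Cul3, the scaffold of the ligase, averaged 90.6 ± 5.43 TPM with oxLDL and 90.7 ± 7.17 TPM in Control (SD, n = 3 each). Sqstm1, which encodes p62, an autophagy adaptor that sequesters KEAP1 and is itself an NRF2 target, had the smallest p of the list in each comparison. It averaged 419 ± 26.3 TPM in LDL libraries against 319 ± 31.7 TPM in Control libraries (SD, n = 3 each), without overlap (0.40 on the log2 scale, 95% CI 0.19 to 0.60, adjusted p = 0.203, and 0.062 with the block). With oxLDL it averaged 365 ± 25.1 TPM, below all LDL libraries (log2 difference -0.20 against LDL and 0.19 against Control, adjusted p = 1 for both). Dcaf11, an adaptor of a CUL4 ligase that offers a route to NRF2 without KEAP1, was at 28.2 ± 2.84 TPM in LDL libraries against 35.1 ± 5.30 TPM in Control libraries (-0.30 on the log2 scale, adjusted p = 0.69). Gsk3b, a kinase that marks NRF2 for the BTRC route, was at 28.5 ± 1.55 TPM with oxLDL and 31.5 ± 1.80 TPM in Control, and Pgam5, a mitochondrial phosphatase that binds KEAP1, at 34.3 ± 1.59 TPM with oxLDL and 30.9 ± 1.81 TPM with LDL (adjusted p = 1 for both).

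For NRF1, the 6 tested genes of its processing had median log2 differences of 0.03, 0.02 and 0.01 in the same order. In limma 0 passed without and 0 with the block, and 0 were at an unadjusted p under 0.05 in either fit. Ngly1, the glycanase that edits NRF1 on its way out of the endoplasmic reticulum, averaged 12.5 ± 0.917 TPM with oxLDL, 12.4 ± 1.24 TPM with LDL and 13.9 ± 0.471 TPM in Control. Its log2 difference was -0.15 against Control for both lipoproteins (adjusted p = 1 for oxLDL and 0.943 for LDL). Ddi2, the protease that cleaves NRF1, averaged 28.2 ± 1.81 TPM with oxLDL, 28.9 ± 1.89 TPM with LDL and 28.0 ± 3.37 TPM in Control. Hcfc1, a partner of the glycosyltransferase OGT, was at 65.0 ± 7.05 TPM with oxLDL and 61.5 ± 7.95 TPM in Control, and Fbxw7, a ligase adaptor, at 6.14 ± 0.437 TPM with oxLDL and 5.96 ± 0.546 TPM with LDL (adjusted p = 1 for both). The seventh gene, Ddi1, was at 0 to 0.02 TPM and was not tested. Of 32 proteasome subunit genes, the known NRF1 targets, 0 passed in limma in any comparison, without or with the block. At an unadjusted p under 0.05 there were 0 in each comparison without the block, and 1, 2 and 1 with it. Over all genes 0.0148%, 0.333% and 0.104% were called without the block, and 3.86%, 6.65% and 3.91% were under 0.05. With the block those shares were 0.126%, 0.852% and 0.259%, and 9.08%, 13.1% and 8.51%. All log2 differences of the 32 genes lay between -0.08 and 0.20. The highest was that of Psmd11, a subunit of the regulatory particle lid, at 117 ± 4.30 TPM with oxLDL, 119 ± 14.8 TPM with LDL and 103 ± 7.66 TPM in Control (0.18 and 0.20 on the log2 scale, adjusted p = 1 and 0.8). The others with the smallest p-values were Psmd7 for oxLDL against Control (0.10), Psma5 for LDL against Control (0.11), and Psmd8 (0.13) and Psmb6 (-0.08) for oxLDL against LDL.

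The target genes showed larger differences than the regulators. Each of the 28 listed NRF2 targets had a higher mean under oxLDL than under buffer, and likewise under LDL, with median log2 differences of 0.48 and 0.50, against 0.00 over all genes. The list was compiled with earlier results of these data known, and the comparisons share the Control libraries. In limma 0 of the 28 rose with oxLDL (21 at an unadjusted p under 0.05) and 1 rose with LDL (26 at an unadjusted p under 0.05), where 3.86% and 6.65% of all genes were under 0.05. With the replicate block 4 rose with oxLDL and 12 with LDL. The shares of all genes called for oxLDL and LDL were 0.0148% and 0.333% without the block, and 0.126% and 0.852% with it. Nqo1, a quinone reductase and classical NRF2 target, was at 480 ± 66.8 TPM in LDL libraries against 242 ± 55.5 TPM in Control libraries, 1.98-fold higher (adjusted p = 0.0371). It was at 477 ± 21.1 TPM with oxLDL, 1.97-fold of Control (adjusted p = 0.219, and 0.0457 with the block). The Nqo1 call for LDL was lost without any 1 library other than Control 3 (adjusted p = 0.0734 to 0.196). With all libraries of the comparison kept it was also lost without the filter (adjusted p = 0.122), with quantile normalization (0.0528), in a fit of the 6 libraries compared (0.167) and without a trend in the prior (0.0646). Pgd, which makes NADPH in the pentose phosphate pathway, reached 279 ± 4.93 TPM with oxLDL, against 191 ± 6.83 TPM in Control (0.54 on the log2 scale, adjusted p = 0.0729, and 0.00912 with the block).

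The 8 haem and iron genes that BACH1 is known to repress had medians of 0.47 for oxLDL against Control and 0.59 for LDL against Control. In limma 3 rose with LDL and 5 with the block, where 0.333% and 0.852% of all genes were called in either direction. With oxLDL 0 rose without and 0 with the block, where 0.0148% and 0.126% of all genes were called. At an unadjusted p under 0.05 without the block there were 5 with LDL and 4 with oxLDL. Over all genes that level was reached by 6.65% and 3.86%. Slc48a1, a haem transporter of lysosomes, reached 125 ± 15.6 TPM in LDL libraries, against 77.7 ± 3.25 TPM in Control libraries (0.68 on the log2 scale, adjusted p = 0.0215). Hmox1, the haem oxygenase, rose by 1.34 on the log2 scale (adjusted p = 0.0264) and Blvrb, a biliverdin reductase, by 0.90 (adjusted p = 0.0264). Of these 3 calls, 0 to 2 were left when 1 library was omitted, and 0 without LDL 2 or any 1 Control library (adjusted p = 0.0647 to 0.113). All 3 were also lost without the filter (adjusted p = 0.0566 to 0.0919) and in a fit of the 6 libraries compared (adjusted p = 0.0786 to 0.131). With oxLDL the 3 genes differed from Control by 0.55, 0.95 and 0.79, without passing (adjusted p = 0.219, 0.459 and 0.219). Between oxLDL and LDL, 0 of the 28 targets and 0 of the 8 haem and iron genes passed in limma, where 0.104% of all genes were called. At an unadjusted p under 0.05 there were 1 and 0, a level that 3.91% of all genes reached. The medians were -0.06 and -0.07. Both medians were positive without LDL 3 (0.08 and 0.03) and lay at -0.15 and -0.20 without LDL 1. The smallest p-values there were those of Pgd (0.20) and Gstp1 (0.18), a glutathione transferase, and of Slc40a1, the iron exporter ferroportin (-0.64), and Hmox1 (-0.39). The macrophage markers differed between the groups too. For LDL against Control 10 of 10 had higher means, with a median log2 difference of 0.30, and their sum was higher within each replicate number, at 711, 222 and 564 TPM with LDL and 464, 218 and 433 TPM in Control. For oxLDL against Control 6 of 10 had higher means (median 0.08), and between oxLDL and LDL 10 of 10 had lower means with oxLDL (median -0.23). None of the 10 passed in limma in any comparison, without or with the block. At an unadjusted p under 0.05 there were 0 in each comparison without the block. With it there was 1 for LDL against Control, where 13.1% of all genes were, and 0 in the other comparisons. Within the replicate numbers, 7 of 10 were higher with LDL than in Control 3 of 3 times and 0 lower. Over all genes 35.4% differed in the same direction. The part of macrophages in the differences of the target genes was not tested.

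**Figure D4:**
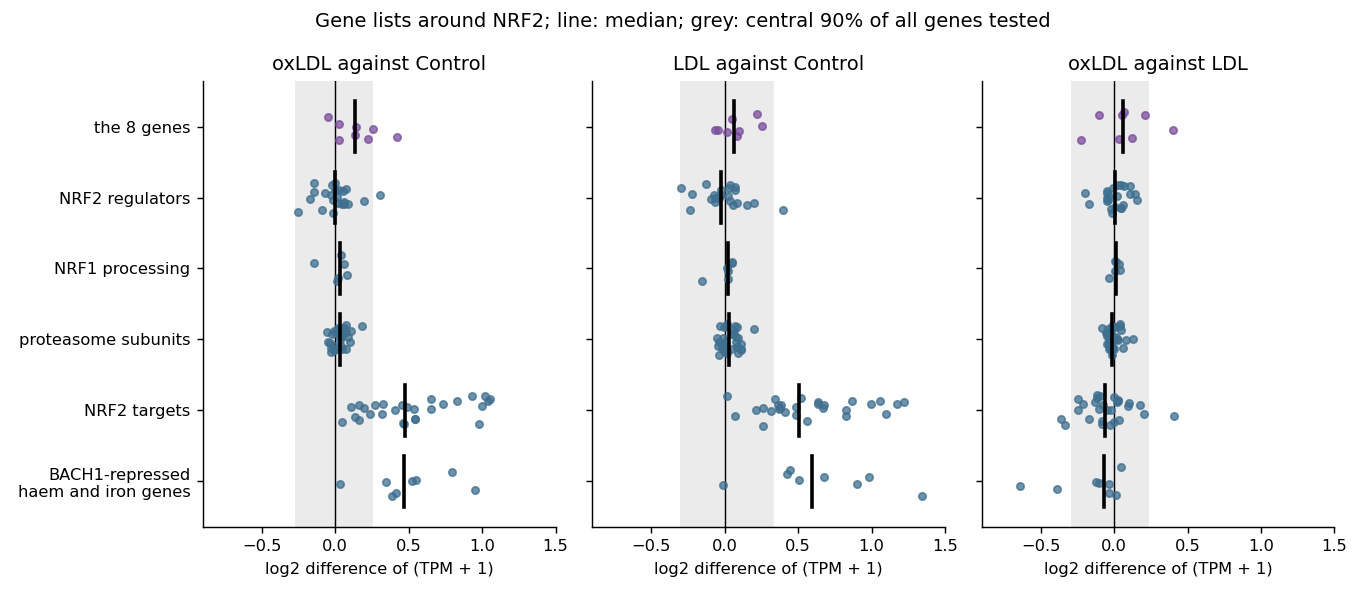
Differences on the log2(TPM + 1) scale (horizontal axis) of the 8 genes and 5 gene lists in 3 comparisons; each point is a gene, black lines are medians and the grey band holds the central 90% of all 13495 genes tested. The NRF2 targets have medians of 0.48 and 0.50 against Control, while the NRF2 regulators and proteasome subunits have medians between -0.03 and 0.04 in all 3 comparisons.

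Of the other CNC and MAF factors, 6 were examined, and 5 of them stayed under 1 TPM in every library. Nfe2l3 (NRF3) reached 0.32 TPM at most, Nfe2, the erythroid factor of the family, 0.44 TPM, Bach2, a repressor of lymphocytes, 0.79 TPM and Mafa, a factor of pancreatic beta cells, 0.54 TPM. Nrl, a photoreceptor factor, was listed at 0 in all 9. The large factor Maf passed the filter and averaged 2.52 ± 0.38 TPM with oxLDL, 2.22 ± 0.371 TPM with LDL and 2.29 ± 0.225 TPM in Control. Its log2 difference was 0.09 for oxLDL against Control, -0.04 for LDL against Control and 0.13 between oxLDL and LDL, and it did not pass (adjusted p = 1 in each).

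**Figure D5:**
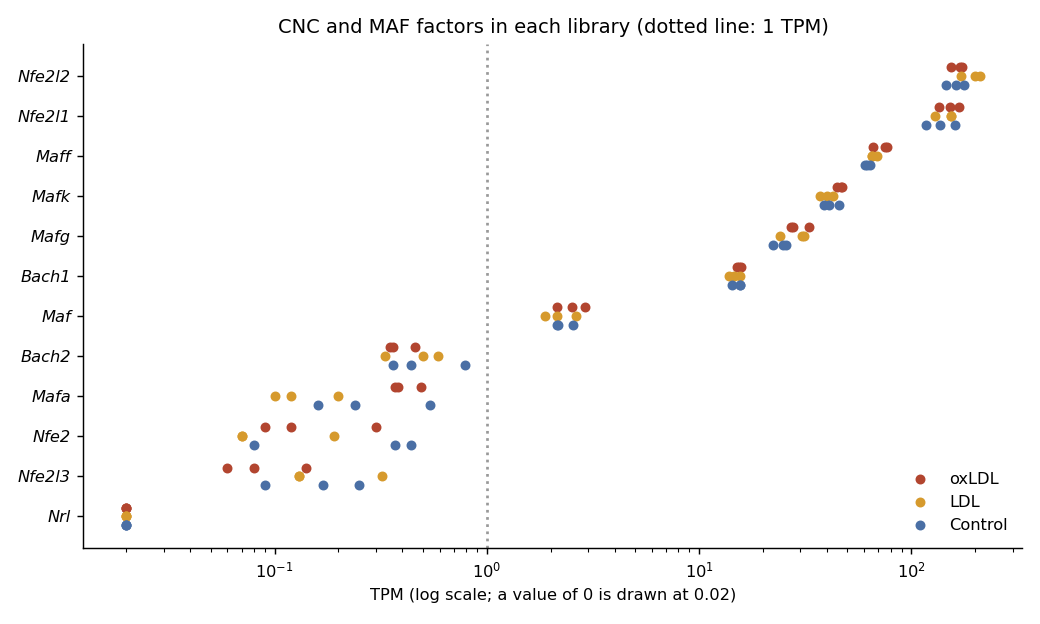
TPM of 12 CNC and MAF factors in each library (horizontal log axis, 1 point per library, with oxLDL, LDL and Control drawn from top to bottom in each row). Nfe2l2, Nfe2l1, the small MAFs and Bach1 stand between 13.9 and 210.2 TPM, Maf between 1.89 and 2.90 TPM, and the other 5 under 1 TPM.

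For each of the 8 genes, the most similar patterns over the 9 libraries were sought among 11632 other protein-coding genes by Pearson's r of log2(TPM + 1). Libraries with the same number share variation, and among so many genes high values arise readily, so r is given as a description. The closest to Nfe2l2 were Dnaja1, a co-chaperone (r = 0.966), and Pcx, pyruvate carboxylase (r = 0.962). Osgin1 was closest to Trmt6 (r = 0.978) and Ror2 (r = 0.968), and had 138 genes with r above 0.9, the most of the 8. Mafk was closest to Bicd2 (r = 0.963) and Clic4 (r = 0.952), Mafg to Etv3 (r = 0.962) and Ppm1f (r = 0.949), and Maff to Pgrmc1 (r = 0.929) and Fez2 (r = 0.906). Nfe2l1 was closest to Rassf8 (r = 0.979) and Ap1s3 (r = 0.946). Bach1 was closest to Ints12 (r = 0.942) and Etl4 (r = 0.918), and Keap1 to Tenm3 (r = 0.925) and Dennd4b (r = 0.902).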

How the data were processed

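The authors deposited 1 table of TPM values with 51810 genes and 9 columns whose sums were 999998.81 to 1000000.43, and 0 columns were left unused. Per the submitters' processing notes, STAR (no version given), RSEM 1.3.1 and the build mm10 were used, and no source used here gives the annotation. TPM was turned into log2(TPM + 1), and 13495 genes whose mean over all libraries reached 1 TPM were tested. Tests were two-sided fits of limma 3.58.1 in R 4.3.3, with an eBayes prior following the mean, all 9 libraries sharing 1 spread (6 residual degrees of freedom, or 4 with the replicate number as a block), and Benjamini-Hochberg adjustment over all genes tested at a threshold of 0.05. The fit without the block was tested on simulated data. Libraries varied independently there, so variation shared within a replicate number was not covered. Sums and ratios of the 8 genes were compared by exact permutation of 3 against 3 libraries.

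Sample titles give the replicate numbers. Residuals from the group means had a correlation of 0.172 to 0.497 within each of 9 same-number pairs, against -0.309 to 0.13 for 18 other pairs. The numbers were therefore taken to pair the libraries in the fits with the block and in the comparisons within replicate numbers. The main fit and the exact permutation tests did not use this pairing, so p-values and intervals given without the block ignore it. Alternatives are given in the closing section.

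The 8 genes and the lists were chosen with earlier results of these data known. Named genes were all 8 members, from each list up to 4 called genes per comparison or otherwise the 2 with the smallest p, Hmox1 and Nqo1, and the 2 genes most similar to each member. Cul3, Ddi1, Nfe2l3, Nfe2, Bach2, Mafa and Nrl were named after their values were seen. Protein sequences were not used here. A factor of the list of other CNC and MAF genes is not reported here.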

Additional observations from a re-analysis of the deposited data

How the results depend on the processing

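The count of 0 of 8 genes called was the same in every comparison under pseudocounts of 0.1 and 5, no filter on low values, a minimum mean of 5 TPM, median-ratio scaling, quantile normalization, the replicate block, a fit of the 6 compared libraries, a prior without trend, and each fit without 1 of the 9 libraries. The smallest adjusted p of any of the 8 genes was 0.054, for Nfe2l2 with LDL under the replicate block. Median-ratio and quantile scaling left the median of all genes within 0.01 of 0. Of 216 log2 differences under settings that kept all 9 libraries or the 6 compared, 0 changed sign. Only the pseudocounts and the scalings could alter these differences. The filters, the block, the fit of the 6 compared libraries and the prior leave them unchanged in this design. Of 216 with 1 library left out, in fits without the block, 11 changed sign. Omitting a library of the group not compared cannot change a difference. None of the differences of the 8 genes had passed in the main fit. Without 1 library, Nfe2l2 for oxLDL against Control ran from -0.045 to 0.095 and Bach1 from -0.020 to 0.046. For LDL against Control, Osgin1 ran from -0.25 to 0.29 and Nfe2l1 from -0.026 to 0.20. For oxLDL against LDL, Nfe2l1 ran from -0.029 to 0.13 and Mafg from -0.079 to 0.10. The log2 ratio of Bach1 to Nfe2l2 for oxLDL against Control ran from -0.11 to 0.090. The cause was not tested. The replicate block changed no call of the 8 genes. Pairing cannot change the mean difference of the small MAF sum, which was 0.21 for oxLDL against Control. Over all genes, 2, 45 and 14 passed for oxLDL against Control, LDL against Control and oxLDL against LDL, but 17, 115 and 35 with the replicate block, 10, 19 and 8 without the filter, and 1, 9 and 6 when fitting only the 6 libraries compared. Fits without 1 library gave 1 to 3, 4 to 37 and 1 to 10. TPM gives no depth, so counting error could not be set apart from the spread between libraries.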
